A study of Brassica napus with 11 samples.

Results

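This report compares the epidermis of the *Brassica napus* funiculus with the cortex beneath it, in both directions and whatever the level in the vasculature. The funiculus is the stalk that joins a developing seed to the fruit wall. The study cut its tissues from sections by laser microdissection (LMD) and sequenced their RNA, and the comparison rests on 3 epidermis and 2 cortex libraries, 5 of the 11 libraries of the series. Another 3 libraries, of the vasculature, were set beside them as levels and entered the estimate of the spread, and the whole funiculus libraries were left out of the comparison. All plants were cultivar Topaz, line DH4079, untreated, with siliques collected 7 days after pollination, at the globular stage of seed development. Each library pooled at least 20 cut elements from at least 3 plants, so that a library is a mixture of funiculi. A further cortex library was set aside by the study before sequencing. Transcripts were kept where the mean of the epidermis or of the cortex reached 1 FPKM (fragments per kilobase of transcript, scaled to the mapped reads of the library, a level per length that can be compared between genes), which left 40614 of the 97902 transcripts in the table.

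An epidermis is the outer cell layer of a plant organ. It is known for the cuticle it lays on its outer wall, a film of cutin polyester and waxes that is built from fatty acids in the cell, exported by ABC transporters and assembled outside by GDSL lipases and acyltransferases. Its identity is held by homeodomain proteins of the HD-ZIP IV class, and its cuticle genes are switched on by MYB and ERF-type factors. The cortex is ground tissue between the epidermis and the vascular strand, and its cells grow mainly by taking up water into the vacuole while their walls yield.

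In the epidermis, transcripts of this cuticle machinery were higher: the homeodomain gene *PDF2*, a *MYB16* homolog, the cutin exporter gene *ABCG32*, the fatty acid elongase gene *KCS10* and 2 GDSL lipase transcripts were each 5.31 to 8.86 times as high on average as in the cortex. The study reports no prominent cuticular deposition on this funiculus, and RNA levels do not show whether a cuticle is laid. Among transcripts higher in the cortex, the vacuolar water channel gene *TIP1;1* was 18.2 times the epidermis mean. Transcripts of the secreted peptides *GASA6* and *PSK4*, of proteins described as extensin family or extensin-like and of aspartyl proteases were 5.20 to 9.60 times the epidermis mean. Except for the *MYB16* homolog and a GDSL lipase, the transcripts named in this paragraph stand on the study's lists of tissue-enriched transcripts. Those lists were drawn from these libraries and required a level at least 5-fold above the other tissues. Ratios of about 5 or more were therefore set by that choice. The transcripts called higher in the epidermis were mostly near 0 in the vasculature, which the test in part favours because those libraries enter the spread.

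The 5 libraries were not equally deep and did not all lie closest to their own tissue. The steps between low FPKM values gave the number of fragments (single-end reads) of each library relative to the deepest of the series: 0.356, 0.340 and 0.493 in epidermis 1 to 3, against 0.376 and 0.739 in cortex 1 and 2. Of the transcripts tested, 3085 to 3948 were listed at 0 in an epidermis library, against 3227 in cortex 1 and 1936 in cortex 2. Over the transcripts tested, on the log2(FPKM + 1) scale, epidermis 3 correlated more closely with cortex 2 (Pearson's r = 0.813 across transcripts) than with epidermis 1 (0.733) or epidermis 2 (0.799), and cortex 1 and 2 correlated at 0.776. These correlations are over transcripts of single libraries and describe the libraries only.

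Differences are given as log2(FPKM + 1) in the epidermis minus that in the cortex, with the standard error (SE) of the limma fit, so that a positive difference means higher in the epidermis, and the 1 FPKM added shrinks the difference of low transcripts. The p-values measure the spread between these libraries and were adjusted by Benjamini-Hochberg over all transcripts tested. At an adjusted p under 0.05, 90 transcripts were higher in the epidermis, 0.222% of those tested, and 81 were higher in the cortex, 0.199% of those tested. In each of these 171 transcripts all libraries of the higher tissue lay above all libraries of the other. Before adjustment, 2005 transcripts (4.94%) were higher in the epidermis at p under 0.05 and 2578 (6.35%) in the cortex. All 3 epidermis libraries lay above both cortex libraries in 4702 transcripts (11.6%), and both cortex libraries above all 3 epidermis libraries in 5108 (12.6%). The median difference over all transcripts tested was -0.02. With 3 against 2 libraries there are 10 splits, and an exact two-sided permutation test of a single transcript cannot go below p = 0.1, so the calls rest on the spread that limma shares between transcripts.

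**Figure D1:**
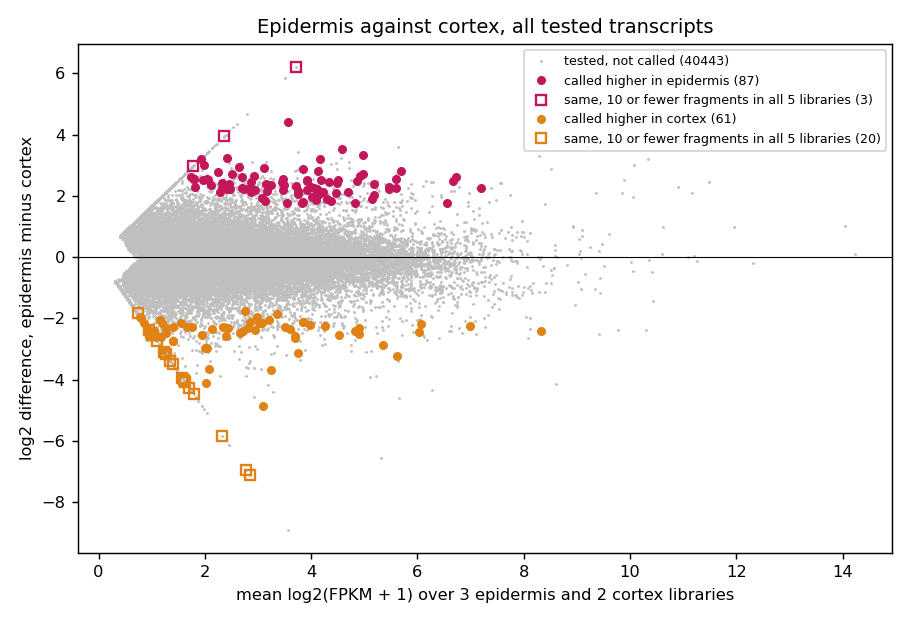
Difference between epidermis and cortex (log2, epidermis minus cortex) against the mean log2(FPKM + 1) of the 5 libraries, one point per tested transcript; called transcripts are coloured, and open squares are calls whose values come to 10 or fewer fragments over the 5 libraries. The 90 epidermis calls lie at differences of 1.75 to 6.20, the 81 cortex calls reach -7.12, and the largest cortex differences are open squares.

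Which transcripts were called changed with the libraries in the fit. Without epidermis 1, 2 or 3 the counts were 4, 5 and 5 higher in the epidermis and 12, 8 and 12 higher in the cortex. Without vasculature 1, 2 or 3, which enter only the spread, they were 1, 11 and 2 in the epidermis and 14, 33 and 8 in the cortex. Without cortex 1 they were 47 and 518, and without cortex 2 114 and 243, where the lone cortex library is assumed to vary like the others. In a fit of the 5 libraries alone, 1 and 6 transcripts passed, and the 90 and 81 had adjusted p-values of 0.00739 to 0.183 and of 0.00739 to 0.282. All 90 and all 81 kept their direction there and without each of the 8 libraries in turn. Their libraries did not overlap, so leaving out a library cannot turn the direction. They also kept an unadjusted p under 0.05 in the fit of 5 libraries and without each epidermis or vasculature library. These transcripts were selected on the same values, so this is no independent support. Of the 54 calls among the transcripts named here, 47 were lost without at least 1 library, and 8, 8 and 9 stood without epidermis 1, 2 and 3, 26 and 23 without cortex 1 and 2, and 11, 20 and 8 without vasculature 1, 2 and 3. The values of each library are therefore given beside the calls.

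The epidermis calls were more abundant transcripts than the cortex calls. Their median level was 24.2 FPKM in the epidermis, against 4.24 FPKM in the cortex, and 0.148 FPKM in the vasculature. The cortex calls had a median of 0.682 FPKM in the epidermis, against 15.2 FPKM in the cortex, and 8.33 FPKM in the vasculature. Among the 21070 tested transcripts whose higher mean was 1 to 5 FPKM, 0 were called higher in the epidermis and 16 in the cortex by limma, although 711 and 1005 had an unadjusted p under 0.05. At 5 to 25 FPKM (15713 tested) the calls were 46 and 41, and at 25 FPKM or more (3831 tested) 44 and 24. The study's tables pair only 29 of the 90 and 26 of the 81 with a description, and 4 and 6 of these read unknown protein.

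The regulators of epidermal identity and of the cuticle came to 5 transcripts, all tested, with a median difference of 2.26. *PDF2* (BnaC09g22500D), an HD-ZIP IV factor that holds epidermal identity in Arabidopsis, had 11.5, 8.57 and 5.91 FPKM in epidermis 1 to 3, against 0.673 and 1.28 FPKM in cortex 1 and 2, and was listed at 0 in the vasculature. The lowest epidermis library was thus above the higher cortex library, with a difference of 2.26 ± 0.37 (SE) and a limma adjusted p of 0.0457. *MYB16* (BnaA02g02580D), an activator of cuticle genes, had 17.3, 14.9 and 9.26 FPKM in the epidermis, against 1.31 and 2.00 FPKM in the cortex (2.45 ± 0.37, adjusted p = 0.0418). In fragments these values stood for 50, 41 and 37 in the epidermis, against 4 and 12 in the cortex. A second *MYB16* homolog on another chromosome (BnaC02g05990D) had 19.1, 14.2 and 24.3 FPKM in the epidermis, against widely different cortex libraries at 0.442 and 6.97 FPKM, and did not pass (adjusted p = 0.127). *SHN3* (BnaC09g04040D), an ERF-type activator of cutin genes, had 13.5, 29.0 and 27.8 FPKM in the epidermis, against 4.28 and 4.89 FPKM in the cortex, and missed the threshold (adjusted p = 0.0608). For *MYB106* (BnaA01g33290D), the close relative of *MYB16*, the difference was 1.14 ± 0.41 (adjusted p = 0.319). The libraries of both tissues did not overlap in any of the 5, and all 5 had an unadjusted p under 0.05. Of the 5, 3 come from the study's own list of epidermis transcripts, which was drawn from these libraries and is no independent evidence of direction. The A-genome *MYB16* and *MYB106* were picked by position instead, since they come from the first 1999 transcripts of the study's annotation in chromosomal order. In bulk tissue, more cells of a type and more RNA per cell cannot be told apart.

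Of the 19 transcripts of cutin, wax and lipid transfer, all tested, 5 were called higher in the epidermis and none lower, 15 had an unadjusted p under 0.05, and the median difference was 2.31. The study had placed 18 of the 19 on its epidermis list. Elongation of fatty acids was represented by *KCS10* (BnaA09g40640D), a 3-ketoacyl-CoA synthase, with 32.3, 32.7 and 18.1 FPKM in the epidermis, against 5.92 and 4.30 FPKM in the cortex (2.2 ± 0.35, adjusted p = 0.0454). For the export of cutin precursors, *ABCG32* (BnaA04g15520D) had 21.6, 25.1 and 24.2 FPKM in the epidermis, against 4.41 and 4.49 FPKM in the cortex. The replicates of both tissues were close together, with a difference of 2.17 ± 0.29 and an adjusted p of 0.0382. A GDSL lipase transcript (BnaA08g17820D), of the family that joins cutin monomers outside the cell, had 23.5, 23.9 and 15.2 FPKM, against 3.65 and 2.87 FPKM in the cortex (adjusted p = 0.0409). *LUP2* (BnaA07g34540D), a triterpene synthase, and a long-chain fatty alcohol dehydrogenase (BnaA03g44000D) were the remaining calls of the group, at means of 9.14 ± 2.8 and 7.61 ± 2.6 FPKM in the epidermis (SD, n = 3), against 1.12 ± 0.28 and 0.655 ± 0.32 FPKM in the cortex (SD, n = 2).

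Abundant cuticle transcripts had large differences that did not pass, and their cortex libraries differed, as did the vasculature libraries that also enter the spread. *PEL3* (BnaC02g41520D), an acyltransferase needed for an intact cuticle in Arabidopsis, had 391, 292 and 422 FPKM in the epidermis, against 52.2 and 88.1 FPKM in the cortex (2.41 ± 0.47, adjusted p = 0.0721). *LTP2* (BnaAnng27610D), a lipid transfer protein of the cell surface, had 3253, 1610 and 2917 FPKM in the epidermis, against 158 and 605 FPKM in the cortex (3.00 ± 0.90, adjusted p = 0.214). In both, cortex 2 lay above cortex 1, and neither tissue reached into the range of the other. In vasculature 1 to 3, *LTP2* had 13.4, 0.684 and 8.62 FPKM and *PEL3* had 2.77, 0.432 and 0.619 FPKM. The part of each tissue in the SE was not worked out separately. The summed level of all 19 transcripts was 4503, 2594 and 4154 FPKM in epidermis 1 to 3, against 317 and 833 FPKM in cortex 1 and 2, and 14.2 to 31.6 FPKM in the vasculature. Of the cortex sums, *LTP2* alone made up 158 and 605 FPKM. The higher sum in cortex 2 therefore largely repeats *LTP2* and does not describe all 19. Without cortex 1 or cortex 2, 47 and 114 transcripts in all were called higher in the epidermis, as given above. The part of epidermal cells in the cortex cuts was not tested.

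**Figure D2:**
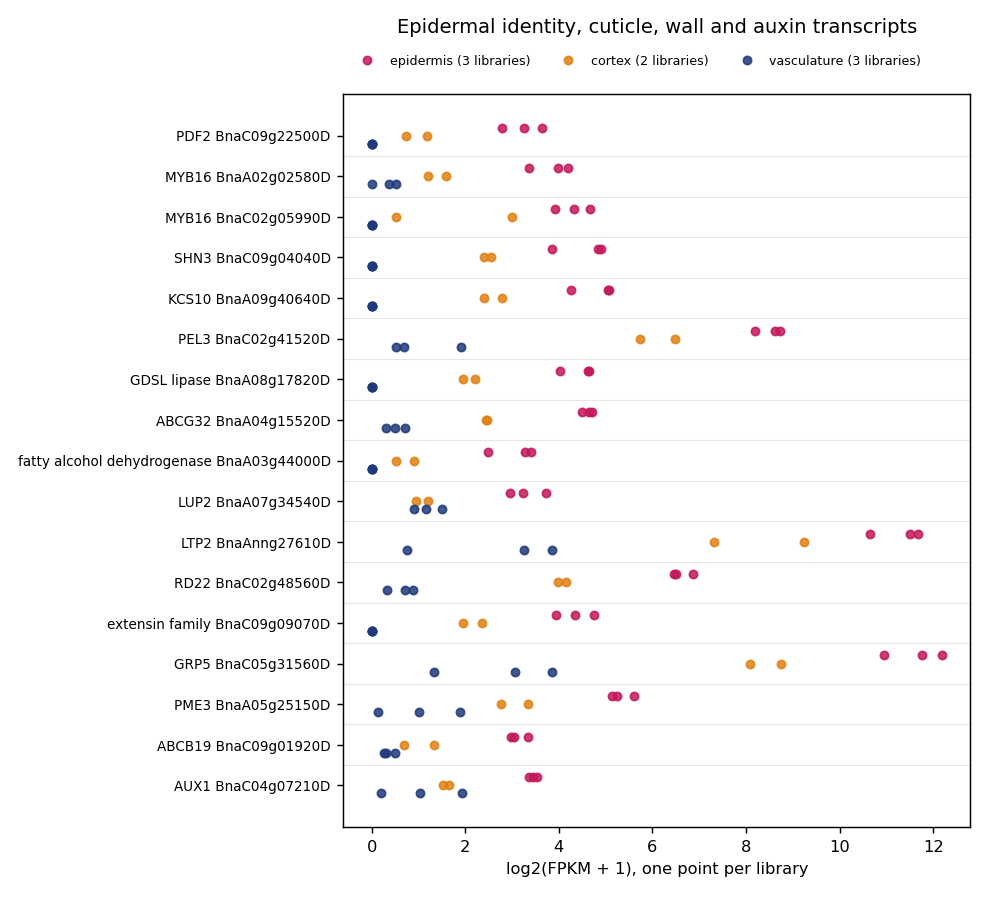
Levels of 17 transcripts of epidermal identity, cuticle, wall and auxin transport in log2(FPKM + 1), one point per library, for 3 epidermis, 2 cortex and 3 vasculature libraries. In every line the epidermis points lie to the right of the cortex points, and for *LTP2*, the second *MYB16* and *PEL3* the cortex points lie apart from each other.

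Wall transcripts of the epidermis followed the same pattern at higher levels. All 17 members of the wall list lay above the cortex in every library, 16 had an unadjusted p under 0.05, and 2 were called, with a median difference of 2.5. All 17 were chosen by the study on these libraries, so this count describes them and is no independent evidence. *RD22* (BnaC02g48560D), a BURP domain wall protein named for its induction by dehydration in Arabidopsis, had 116, 89.4 and 86.8 FPKM in the epidermis, against 16.8 and 14.8 FPKM in the cortex (2.54 ± 0.31, adjusted p = 0.0304). A transcript described as a Pollen Ole e 1 allergen and extensin family protein (BnaC09g09070D) had 26.1, 19.3 and 14.3 FPKM, against 2.84 and 4.13 FPKM in the cortex, and was listed at 0 in the vasculature (adjusted p = 0.0452). The glycine-rich protein gene *GRP5* (BnaC05g31560D) was the most abundant member, at 3444, 1979 and 4660 FPKM in the epidermis, against 271 and 431 FPKM in the cortex, and did not pass (3.21 ± 0.69, adjusted p = 0.0919). *PME3* (BnaA05g25150D), which removes methyl groups from pectin, had 47.5, 36.9 and 34.2 FPKM, against 5.82 and 9.20 FPKM in the cortex (adjusted p = 0.0914).

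Outside those lists the epidermis calls held further ABC transporters, lipid enzymes and stress proteins. Both homologs described as P-glycoprotein 2, an ABC transporter of the B subfamily, passed: BnaA01g15130D had 67.8, 102 and 73.8 FPKM in the epidermis, against 12.6 and 21.5 FPKM in the cortex (2.21 ± 0.34, adjusted p = 0.0438), and BnaC01g17890D, named after its values were seen, an adjusted p of 0.0492. Near-identical homologs of the A and C genomes can share reads, so these may not be independent observations. A transcript described as related to the jojoba acyl-CoA reductase (BnaA01g03200D), of the family that makes fatty alcohols, had 83.3, 54.6 and 73.4 FPKM in the epidermis, against 10.6 and 14.5 FPKM in the cortex (2.39 ± 0.35, adjusted p = 0.0418). A GDSL lipase transcript from the positional list (BnaA01g15910D) had 30.6, 25.8 and 32.8 FPKM, against 2.56 and 7.09 FPKM (adjusted p = 0.0438). The cytochrome P450 transcript *CYP71B22* (BnaA02g27860D) and an alpha/beta-hydrolase (BnaC09g38400D) passed too, at 5.60 and 6.62 times the cortex mean. Both stand on the study's epidermis list, whose 5-fold rule set ratios of this size.

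Among 27 defence, stress and phenylpropanoid transcripts, 24 were tested, with a median difference of 0.03, and 2 were called, both higher in the epidermis. *MLP28* (BnaC02g20340D), a major latex-like protein, had 56.5, 73.2 and 69.2 FPKM in the epidermis, against 5.31 and 15.2 FPKM in the cortex (2.73 ± 0.40, adjusted p = 0.0418). A CAP160 protein transcript, homolog of the drought-induced Arabidopsis gene *RD29B* (BnaA02g10970D), had 41.9, 45.5 and 23.8 FPKM, against 5.70 and 5.17 FPKM (2.51 ± 0.34, adjusted p = 0.0409). Over all 24, these 2 included, 10 were higher in the epidermis and 5 higher in the cortex at an unadjusted p under 0.05. Of the 27, 11 come from the study's epidermis list, both calls among them, 1 from its cortex list and 15 from its vasculature list. The calls and counts are therefore no independent evidence of direction. Of the 24, 4 were listed at 0 in both cortex libraries and 2 in all epidermis libraries, and these passed the filter through the other tissue alone. A tyrosine transaminase transcript (BnaC01g15060D) was at 35.0, 28.3 and 62.9 FPKM in the epidermis, against 365 and 172 FPKM in the cortex (-2.63 ± 0.61, adjusted p = 0.113).

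Auxin moves between cells through uptake carriers of the AUX1 type and exporters such as ABCB19. *ABCB19* (BnaC09g01920D) had 9.20, 7.27 and 6.89 FPKM in the epidermis, against 0.616 and 1.51 FPKM in the cortex (2.12 ± 0.34, adjusted p = 0.0454), the only call among the 6 tested of 8 auxin transcripts, whose median difference was 1.83. Of the 8, 4 come from the study's epidermis list, *ABCB19* among them, so this median is no independent evidence of direction. The *AUX1* homologs BnaC04g07210D and BnaA05g06540D did not pass, at 9.97 ± 0.67 and 4.85 ± 1.7 FPKM in the epidermis (SD, n = 3), against 2.01 ± 0.17 and 0.629 ± 0.0073 FPKM in the cortex (SD, n = 2), with adjusted p-values of 0.14 and 0.0889. In vasculature 1 to 3, which also enter the spread, BnaC04g07210D had 0.140, 2.79 and 1.04 FPKM. *IAA3* (BnaA10g02490D), a repressor of auxin response, spread widely in the epidermis, at 25.8, 13.2 and 7.15 FPKM, against 2.6 and 1.06 FPKM in the cortex (adjusted p = 0.183), and the response factor gene *ARF1* (BnaA01g35830D) was at 3.56 to 5.73 FPKM in the epidermis, against 3.40 and 3.72 FPKM in the cortex.

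Pollen and pollen tube transcripts stood apart from the pattern above. The study had placed all 21 on its epidermis list, and their median difference was 1.82. By limma 0 of the 21 were called, 0 had an unadjusted p under 0.05, and in 0 of the 21 did all epidermis libraries lie above the cortex libraries. Their summed level was 1323, 187 and 5.36 FPKM in epidermis 1 to 3, against 29.9 and 22.5 FPKM in cortex 1 and 2, and 40.7, 173 and 1.96 FPKM in vasculature 1 to 3. Epidermis 1 and 2 were thus above and epidermis 3 below both cortex libraries. *VGD1* (BnaA03g21590D), a pectin methylesterase of growing pollen tubes, had 59.6, 5.95 and 0 FPKM in epidermis 1 to 3, against 1.47 and 1.12 FPKM in the cortex. The pectate lyase transcripts BnaCnng05770D, BnaA06g09240D and BnaCnng60280D, of the enzymes that cut pectin, had 111, 45.8 and 36.1 FPKM in epidermis 1 and at most 5.39 FPKM in epidermis 2 and 3, against at most 2.68 FPKM in the cortex. The summed level of the 19 cutin and wax transcripts in epidermis 3, where pollen transcripts were lowest, was 4154 FPKM, beside 4503 FPKM in epidermis 1.

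The cortex wall list had 26 transcripts, all tested and all chosen by the study on these libraries. All 26 had a negative difference, with a median of -2.35, 25 had an unadjusted p under 0.05, 23 lay above the epidermis in both cortex libraries, and 6 were called. A transcript described as a Pollen Ole e 1 allergen and extensin family protein (BnaC02g04510D), extensin family for short, had 9.16, 9.61 and 12.9 FPKM in the epidermis, against 66.3 and 64.8 FPKM in the cortex (-2.54 ± 0.29, adjusted p = 0.0277). Another transcript of that description, BnaA02g01430D, had 9.38, 14.5 and 19.4 FPKM, against 90.2 and 76.6 FPKM (-2.5 ± 0.38, adjusted p = 0.0432). These carry the same family description as the epidermal BnaC09g09070D, so transcripts of this family fell on both sides of the comparison. Of the 4 homologs of an extensin-like protein gene (ELP), BnaA06g38220D passed, with 168, 194 and 135 FPKM in the epidermis, against 819 and 947 FPKM in the cortex (-2.42 ± 0.38, adjusted p = 0.0454). BnaC08g15350D, with 142, 141 and 107 FPKM in the epidermis, against 875 and 758 FPKM in the cortex, lay just outside (adjusted p = 0.0517), and BnaC05g49400D had an adjusted p of 0.064. The remaining homolog, BnaA08g24920D, had 62.6, 84.7 and 103 FPKM in the epidermis, against cortex libraries far apart at 224 and 712 FPKM (adjusted p = 0.147).

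Aspartyl protease transcripts were the other called members. BnaA07g20200D had 14.3, 16.3 and 13.7 FPKM in the epidermis, against 76.8 and 76.7 FPKM in the cortex (-2.31 ± 0.27, adjusted p = 0.0277), and BnaA08g26170D and BnaC06g40060D had adjusted p-values of 0.0418 each. The aspartyl proteases and both called extensin family transcripts were lowest of the 3 tissues in the vasculature, where BnaA07g20200D had 7.13, 6.55 and 6.34 FPKM and BnaC02g04510D 4.27, 3.58 and 3.69 FPKM. The most abundant member was a lipid transfer-like transcript (BnaC02g38640D), of the same broad family as *LTP2* but on the other side of the comparison, at 291, 197 and 708 FPKM in the epidermis, against 1412 and 2659 FPKM in the cortex (-2.49 ± 0.93, adjusted p = 0.352). Its replicates spread widely in both tissues. The summed level of the 26 was 1120, 1006 and 1456 FPKM in epidermis 1 to 3, against 6109 and 6941 FPKM in cortex 1 and 2, and 125 to 298 FPKM in the vasculature.

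Growth peptides and gibberellin genes came to 7 transcripts, 5 of them from the study's cortex list and all tested, with a median difference of -2.86, 2 called and 5 with an unadjusted p under 0.05 higher in the cortex, and 0 called and 1 with an unadjusted p under 0.05 higher in the epidermis. *GASA6* (BnaA01g31950D), a small secreted peptide of a gibberellin-regulated family, had 15.9, 12 and 35.7 FPKM in the epidermis, against 124 and 283 FPKM in the cortex (-3.23 ± 0.50, adjusted p = 0.0449), and 2.23 to 2.62 FPKM in the vasculature. *PSK4* (BnaC01g26290D), the precursor of the growth peptide phytosulfokine, had 29.3, 10.6 and 17.1 FPKM, against 147 and 123 FPKM in the cortex (-2.87 ± 0.43, adjusted p = 0.0418). Its homolog BnaA01g20950D had 18.0, 3.44 and 20.2 FPKM, against 94.0 and 80.2 FPKM, and did not pass (adjusted p = 0.101). *GA3OX1* (BnaA06g10250D), the enzyme that makes gibberellin active, had 3.78, 7.48 and 13.4 FPKM in the epidermis, against 55.7 and 64.7 FPKM in the cortex, and lay just outside the threshold (-2.87 ± 0.49, adjusted p = 0.0506). A *BES1* homolog (BnaC08g36760D), a factor of brassinosteroid response, had 3.73, 16.2 and 8.09 FPKM, against 40.9 and 78.8 FPKM (adjusted p = 0.0765).

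Water channels fell on both sides of the comparison. *TIP1;1* (BnaAnng24130D), an aquaporin of the vacuolar membrane, had 2.30, 2.41 and 2.49 FPKM in the epidermis, against 52.3 and 35.2 FPKM in the cortex, and 6.55, 4.69 and 4.88 FPKM in the vasculature. Its mean was 2.40 ± 0.098 FPKM in the epidermis (SD, n = 3), against 43.7 ± 12 FPKM in the cortex (SD, n = 2), with a difference of -3.69 ± 0.31 and an adjusted p of 0.00599. It stayed called in 16 of 18 alternative settings, without each of the 8 libraries among them, with a highest adjusted p of 0.0631 over the 18. It stands on the study's cortex list and was the only call among 9 aquaporin transcripts, all tested, with a median difference of -1.71, 5 of which were higher in the cortex and 2 higher in the epidermis at an unadjusted p under 0.05. Of the 9, 3 were listed at 0 in all epidermis libraries and so passed the filter through the cortex alone. The median and counts over the 9 therefore give no evidence of a direction. *PIP2B* (BnaC04g08090D), an aquaporin of the plasma membrane, had 6.21, 9.78 and 30.3 FPKM in the epidermis, against 67.0 and 111 FPKM in the cortex (-2.70 ± 0.58, adjusted p = 0.0921). In the other direction, *TIP4;1* (BnaC04g38040D) had 16.6, 13.8 and 26.0 FPKM in the epidermis, against 0.542 and 5.51 FPKM in the cortex, and *PIP2E* (BnaA03g18300D) had 10.1, 9.85 and 17.7 FPKM, against 0.713 and 2.35 FPKM, and neither passed (adjusted p = 0.146 and 0.128). A potassium channel transcript, *KAT2* (BnaA01g09060D), was higher in the cortex, with 2.2, 4.15 and 2.07 FPKM in the epidermis, against 12.3 and 24.8 FPKM in the cortex (-2.33 ± 0.39, adjusted p = 0.0497), the only call among 10 transcripts of nutrient transport and metabolism, whose median difference was -1.27. Of the 10, 4 come from the study's cortex list and 2 from its epidermis list, so this median is no independent evidence of direction.

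Signalling and transport proteins outside these lists were also among the described cortex calls of lowest p. Leucine-rich repeat receptor-like kinases were among them: BnaA06g31690D had 11.1, 8.15 and 8.64 FPKM in the epidermis, against 48.1 and 47.3 FPKM in the cortex (-2.26 ± 0.28, adjusted p = 0.0339), and BnaC09g01600D had 4.02, 2.86 and 4.26 FPKM, against 21.9 and 17.8 FPKM (adjusted p = 0.0418). An ABC-2 type transporter (BnaC02g14920D) had 13, 14.5 and 13 FPKM in the epidermis, against 75.7 and 75.6 FPKM in the cortex (-2.41 ± 0.32, adjusted p = 0.0383), and 0.386 to 1.48 FPKM in the vasculature. ABC transporters were thus among the calls of both tissues. A WD40 repeat protein transcript (BnaC03g34970D) was 5.42 times the epidermis mean (adjusted p = 0.0418). It stands on the study's cortex list, as do both kinases and the ABC-2 transporter, and the 5-fold rule of that list set ratios of this size. Of 12 other transcription regulators 0 passed the limma adjustment, with a median difference of 0.52. At an unadjusted p under 0.05, 4 were higher in the epidermis and 3 higher in the cortex, beside 4.94% and 6.35% of all transcripts tested. Of the 12, 4 come from the study's epidermis list and 3 from its cortex list, so these counts are no independent evidence of direction. Among the 12, *CRF4* (BnaC07g41100D), a cytokinin response factor, had 7.92, 14.4 and 14.5 FPKM in the epidermis, against 2.5 and 0.509 FPKM in the cortex (2.48 ± 0.44, adjusted p = 0.0576), and *HB23* (BnaC08g48560D), a homeobox factor, had 11.3, 7.00 and 4.83 FPKM, against 41.4 and 38.1 FPKM (-2.29 ± 0.55, adjusted p = 0.126).

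**Figure D3:**
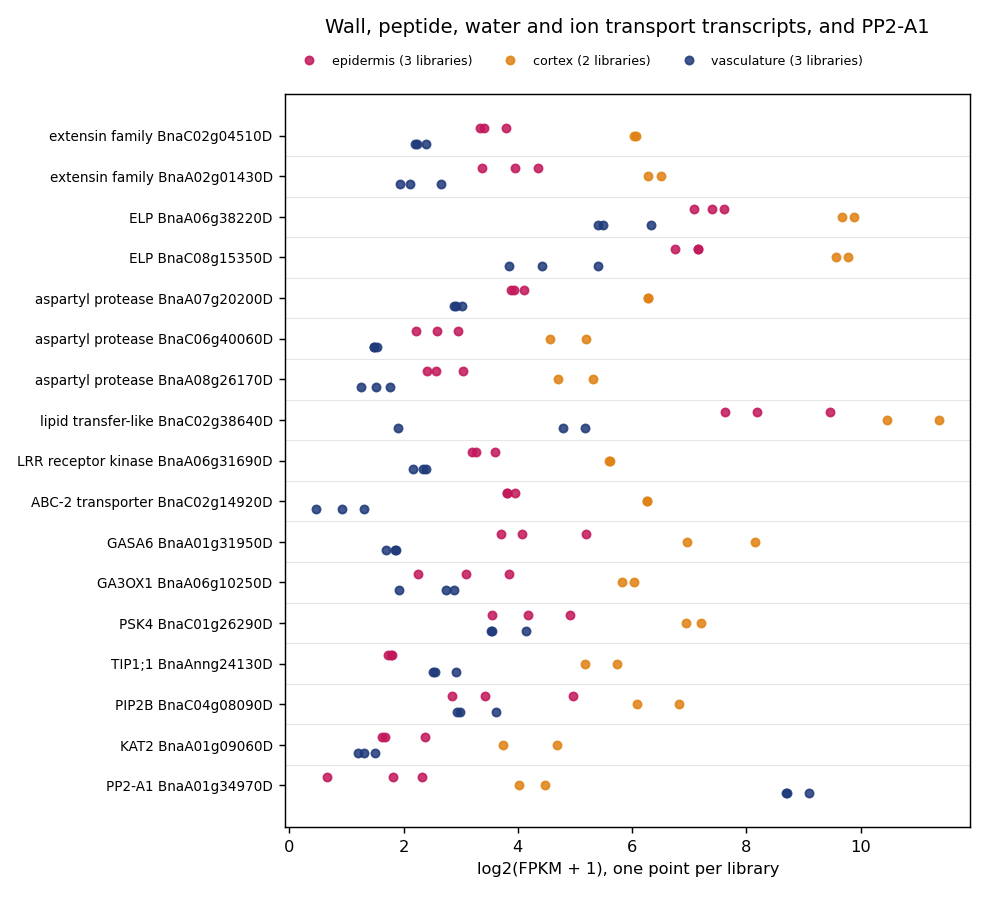
Levels of 17 transcripts in log2(FPKM + 1), one point per library, for 3 epidermis, 2 cortex and 3 vasculature libraries. In the wall, peptide and water and ion transport lines the cortex points lie to the right of the epidermis and vasculature points, with *TIP1;1* furthest from the epidermis, and in the *PP2-A1* line the vasculature points lie far to the right of both.

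The vasculature level was low for most epidermis calls. Of the 90 epidermis calls, 77 had a vasculature mean under 1 FPKM, as had 19 of the 81 cortex calls and 17.4% of all transcripts tested. The vasculature libraries enter the spread, and a transcript at 0 in all 3 of them adds none. Low vasculature levels among the calls are thus in part set by the test. The vasculature mean was above that of both tissues in 2 of the 90 epidermis calls (2.22%), beside 30.4% of all tested transcripts higher in the epidermis, and in 34 of the 81 cortex calls (42.0%), beside 36.7% of all tested transcripts higher in the cortex. The cortex calls were thus near the share of the cortex-higher transcripts as a whole. The following examples were chosen after their values were seen. Early nodulin-like protein 9 transcripts BnaA03g35830D and BnaA05g20350D were listed at 0 in all 3 epidermis libraries, against 4.15 and 5.43, and 3.41 and 6.5 FPKM in the cortex, and 48.7 to 98.9 and 88.3 to 185 FPKM in the vasculature (adjusted p = 0.0418 and 0.0454). A trehalose-6-phosphate synthase transcript (BnaC06g39000D), which makes a sugar signal, had 0.287 to 0.832 FPKM in the epidermis, against 4.89 and 7.90 FPKM in the cortex, and 81.1 to 93.5 FPKM in the vasculature (adjusted p = 0.0418). On the study's vasculature list, which was drawn from these libraries, were 8 of the 81 cortex calls and 0 of the 90 epidermis calls, beside 345 of all 40614 transcripts tested.

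Markers of conducting tissue were set beside these calls. The phloem and xylem list had 38 transcripts, 20 of them tested, and its summed level was 21.4, 23.1 and 11.5 FPKM in epidermis 1 to 3, against 41.3 and 98.6 FPKM in cortex 1 and 2, and 1275, 1631 and 1297 FPKM in the vasculature. Both cortex libraries were thus above all epidermis libraries and far below the vasculature. The study had placed 37 of the 38 on its vasculature list, so the high vasculature level was set by that choice. Of all 38, 23 were listed at 0 in all 3 epidermis libraries, against 12 in both cortex libraries. Of the 20 tested, 0 were called by limma, 9 had an unadjusted p under 0.05 with the cortex higher and 0 with the epidermis higher, and the median difference was -1.08. These counts over the 20 give no evidence of a direction, since 8 of them, the sieve element gene *SEOA* (BnaA05g33720D) among them, were listed at 0 in all epidermis libraries and so passed the filter through the cortex alone. *PP2-A1* (BnaA01g34970D), a phloem lectin, had 3.99, 2.51 and 0.578 FPKM in the epidermis, against 15.1 and 21.2 FPKM in the cortex, and 419, 546 and 415 FPKM in the vasculature (adjusted p = 0.0591). The sucrose carrier gene *SUC2* (BnaC05g17970D) had 0.733, 2.05 and 0.707 FPKM in the epidermis, against 1.16 and 5.42 FPKM in the cortex, with overlapping ranges. The part of vascular RNA in the cortex calls was not tested. The called extensin family and extensin-like transcripts, aspartyl proteases, *TIP1;1*, *GASA6* and the ABC-2 transporter were lower in every vasculature library than in either cortex library. All of these stand on the study's cortex list, which required a level at least 5-fold above the vasculature, so this was set by that choice. Of the 81 cortex calls, 34 had a vasculature mean above both tissues.

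**Figure D4:**
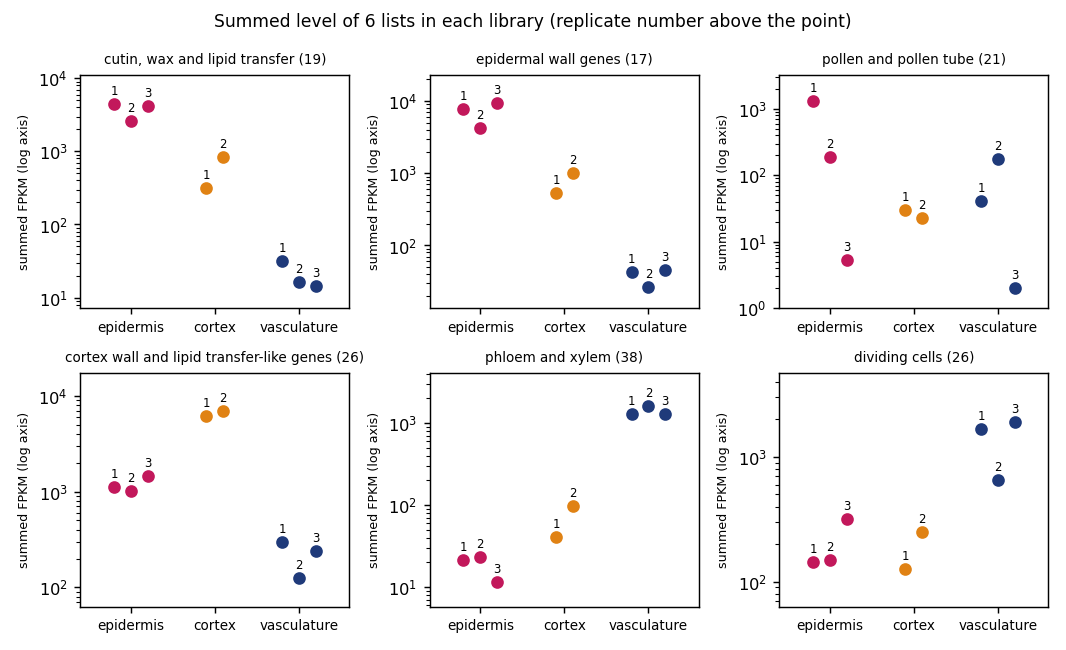
Summed FPKM of 6 lists in each of the 3 epidermis, 2 cortex and 3 vasculature libraries on log axes, with the replicate number above each point. Nearly all members come from the study's own tissue lists, drawn from these libraries, so the tissue of highest mean level was set by that choice. The cutin and wax list lies at 2594 to 4503 FPKM in the epidermis against 317 and 833 FPKM in the cortex, the cortex wall list lies higher in the cortex, the pollen list spans 5.36 to 1323 FPKM within the epidermis, and the phloem and xylem list is highest in the vasculature.

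No transcript of dividing cells was called between the 2 tissues. Of 26 transcripts of replication and mitosis 17 were tested, with a median difference of 0.13, and by limma 0 were called and 0 had an unadjusted p under 0.05 in either direction. Their summed level was 143, 149 and 320 FPKM in the epidermis, against 126 and 248 FPKM in the cortex, and 655 to 1889 FPKM in the vasculature. Histone H4 transcript BnaAnng15490D, for example, had 21.1, 27.4 and 39.5 FPKM in the epidermis, against 16.5 and 43.7 FPKM in the cortex, with a difference of 0.07 ± 0.71. Of the 26, 25 stand on the study's vasculature list, so their higher level in the vasculature was set by that choice.

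Genes that were not chosen for their tissue gave a view free of the study's selection. Of the 1999 transcripts taken by position on the chromosome, 1754 were tested, 8 were called higher in the epidermis and 6 higher in the cortex, 93 and 109 had an unadjusted p under 0.05, and the median difference was -0.02, the same as over all transcripts. Over all transcripts tested, 0.222% and 0.199% were called, and 4.94% and 6.35% had an unadjusted p under 0.05. The counts of the groups below are to be read beside these shares. Of the 15 tested pectin and xyloglucan enzymes among them (20 members), 1 was called, *PME44* (BnaA01g03620D), a pectin methylesterase named after its values were seen, with 52.8, 65.2 and 59.4 FPKM in the epidermis, against 17.7 and 12.9 FPKM in the cortex, and 0 to 0.448 FPKM in the vasculature (1.89 ± 0.32, adjusted p = 0.0495). For this family the median difference was 0.52, with 2 members higher in the epidermis and 3 higher in the cortex at an unadjusted p under 0.05, so that the wall enzymes did not all follow the epidermis. Of 15 tested MYB and homeobox factors (19 members) 1 was called, the *MYB16* homolog given above, with a median difference of 0.20 and with 2 higher in the epidermis and 2 higher in the cortex at an unadjusted p under 0.05. Of 8 lipases, acyltransferases and lipid transfer-like proteins 1 was called, the GDSL lipase BnaA01g15910D. The median difference of these 8 was 0.27, 4 of the 8 were positive, and 3 were higher in the epidermis and 2 higher in the cortex at an unadjusted p under 0.05. Cytosolic and organelle ribosomal proteins had a median difference of -0.09 over 35 transcripts. The remaining positional groups had medians of 0.49 over 6 auxin-responsive transcripts and response factors, -0.40 over 6 histones and cyclins and 0.14 over 17 heat shock proteins and chaperones, with 0 calls by limma in each and 1, 0 and 1 higher in the epidermis and 0, 0 and 1 higher in the cortex at an unadjusted p under 0.05.

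Photosynthesis genes in that positional set leaned to the cortex without passing. All 10 had a negative difference, with a median of -1.14, against -0.02 over all transcripts. By limma 0 of the 10 were called, 5 had an unadjusted p under 0.05 with the cortex higher and 0 with the epidermis higher, and in 4 both cortex libraries lay above all epidermis libraries. Over all transcripts tested the shares were 6.35% with the cortex higher, 4.94% with the epidermis higher, and 12.6% with both cortex libraries above. The following 2 were named after their values were seen. Photosystem I subunit E-2 (BnaA01g08150D) had 29.3, 31.0 and 38.0 FPKM in the epidermis, against 64.3 and 74.0 FPKM in the cortex, and 20.1 to 30.4 FPKM in the vasculature (-1.06 ± 0.31, adjusted p = 0.21). Photosystem II subunit T (BnaA01g25400D) had 31.7, 17.7 and 73.3 FPKM in the epidermis, against 89.1 and 125 FPKM in the cortex, and 17.0 to 18.0 FPKM in the vasculature (-1.58 ± 0.52, adjusted p = 0.267). In this and most other photosynthesis transcripts epidermis 3 was the highest epidermis library, the one that lay closest to cortex 2 over all transcripts.

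Many of the largest differences rested on few fragments. The low values of a transcript are whole multiples of what 1 fragment is worth, and the smallest whole numbers that give the values could be found for 27921 of the 40614 transcripts tested (68.75%), with a median of 46 fragments over the 5 libraries. With the depths of the libraries exchanged, 0.73% of 3000 transcripts could be resolved. Over the 5 libraries, 3263 of the tested transcripts (8.03%) came to 10 or fewer fragments. This held for 3 of the 43 epidermis calls that could be resolved, whose median was 110 fragments, and for 20 of the 35 resolved cortex calls, whose median was 8, and 8 cortex calls rested on 3 or fewer. The cortex was listed at 0 in both libraries for 4 of the 90 epidermis calls, and the epidermis in all 3 libraries for 28 of the 81 cortex calls.

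The cortex call of largest fitted difference, BnaAnng28370D, with no description, was listed at 0 in the epidermis, against 194 and 98.6 FPKM in the cortex, which came to 1 fragment in each cortex library. Its fitted difference of -7.12 depends on the 1 FPKM added and is no measure of fold. BnaC04g42160D was likewise at 0 in the epidermis, against 171 and 86.7 FPKM in the cortex, from 1 fragment each, and 342, 267 and 459 FPKM in the vasculature. In the epidermis, BnaA01g23820D, which the study's table calls an unknown protein, had 76.7, 53.7 and 92.5 FPKM in epidermis 1 to 3, from 3, 2 and 5 fragments, against 0 in both cortex libraries (adjusted p = 0.000229). BnaC04g42160D and BnaA01g23820D were the only named transcripts called in every setting that tested them, all 17, and they rest on 2 and 10 fragments. Other transcripts of large difference rested on more: BnaC09g41820D had 11.0, 5.92 and 7.95 FPKM in the epidermis, against 0.282 and 0 FPKM in the cortex, from 37, 19 and 37 fragments, against 1 and 0 (3.00 ± 0.42, adjusted p = 0.0418), and BnaC02g20380D 58.4, 33.4 and 30.8 FPKM, against 0 and 2.56 FPKM, from 11, 6 and 8 fragments, against 0 and 1 (adjusted p = 0.0283). When all transcripts of 10 or fewer fragments were left out, an alternative added after seeing the data, 131 and 104 transcripts were called, and 87 and 61 of the original calls were among them.

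**Figure D5:**
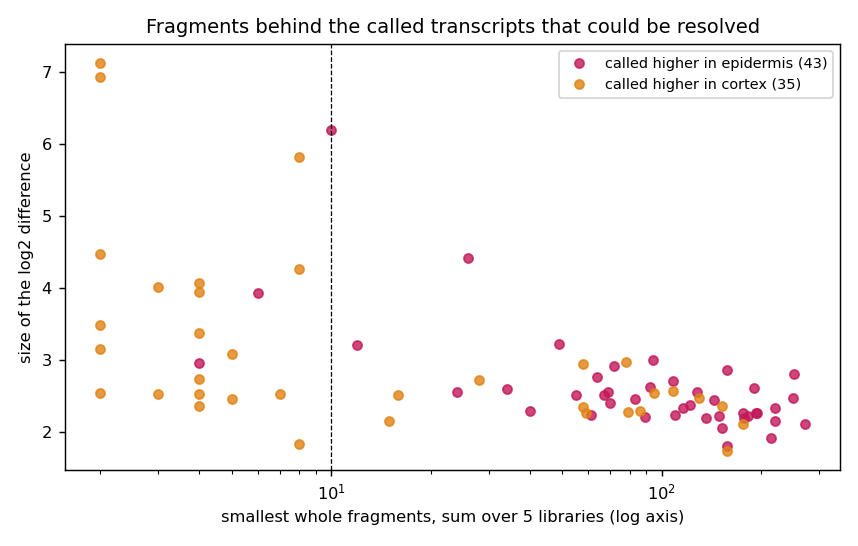
Size of the log2 difference against the smallest whole number of fragments summed over the 5 libraries (log axis), for the 43 epidermis and 35 cortex calls that could be resolved, with a dashed line at 10 fragments. Calls at 10 or fewer fragments reach differences of 7.12, and above 10 fragments 1 call exceeds 4.

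A rule of size gave more transcripts but weaker ones. A mean at least 5 times that of the other tissue with no overlap between libraries was met by 727 transcripts in the epidermis (1.79% of those tested) and 1076 in the cortex (2.65%). Of these, 568 and 955 had an unadjusted p under 0.05, and 68 and 73 were called. Few fragments were more common on the cortex side: 107 of the 727 (14.7%) and 348 of the 1076 (32.3%) came to 10 or fewer, and the other tissue was at 0 in all libraries in 117 and 349. With 1 FPKM added to both means the counts were 138 and 217. Without epidermis 3 they were 1330 and 1736, without cortex 1 1390 and 2402, and without cortex 2 1764 and 1681, since fewer libraries have to stand apart.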

How the data were processed

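RNA was amplified from LMD tissue and sequenced as 50 bp single-end reads. Per the submitters' processing notes and the methods, the authors aligned reads with TopHat2 2.0.13 and deposited FPKM from Cufflinks 2.2.1, scaled for transcript length and library size, per transcript and library. Strand use in counting was not stated. Samples were grouped by their tissue labels.

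FPKM were not rescaled. Differences were fitted with limma 3.58.1 (R 4.3.3, variance trend) on log2(FPKM + 1) over 8 tissue libraries, after a filter of 1 FPKM, called at an adjusted p under 0.05, and tested on simulated data. Python 3.11.15, numpy 2.4.6, pandas 2.3.3 and matplotlib 3.10.9 did the rest. Depth limits precision: fragment numbers were accepted within 0.03 of whole numbers at low counts, up to 100 a library, and cover counting error only, in amplified RNA.

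Named transcripts were the 12 calls of largest difference per direction, the 12 described transcripts of lowest p at 10 FPKM or more per direction, those the study names for these tissues, and up to 5 of highest mean plus every called member of each of 13 lists. Members and lists were chosen with earlier results of these data known. Transcripts with assembly names were counted only. The study's lists, positional annotation and descriptions gave gene names, and its values were not used. Alternatives tried were other pseudocounts and filters, other sets of libraries, a replicate block, rescaling, no variance trend, leaving out each library and leaving out transcripts with few fragments. No sequences were used here.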

Additional observations from a re-analysis of the deposited data

How the results depend on the processing

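Every value given so far for the 90 epidermis and 81 cortex calls kept its sign in all settings that tested it, and what moved was the number past the adjusted threshold. Since their libraries did not overlap, leaving out a library or changing the pseudocount, filter or variance trend cannot turn the sign. Given as epidermis and cortex, the calls were 19 and 48 with a pseudocount of 0.5 FPKM, 9 and 60 with 0.1 FPKM, 11 and 36 with no filter, 74 and 61 with a filter of 5 FPKM, 1 and 6 with 5 libraries only, 182 and 174 with whole funiculus 1 and 3 added, 97 and 87 after rescaling by median ratios, 24 and 30 with no variance trend, and 131 and 104 without transcripts of 10 or fewer fragments. Leaving out each library in turn gave 1 to 114 and 8 to 518. Whether replicate numbers pair the samples is not known from the labels. The correlation of deviations was 0.207 for epidermis 1 with cortex 1 and -0.042 for epidermis 2 with cortex 2. With 2 cortex libraries the deviations mirror each other, so these values cannot settle it. With the replicate number as a block 1 and 3 passed. Of the 113 named transcripts, 54 passed as reported, 25 with a pseudocount of 0.5 FPKM, 19 with 0.1, 18 with no filter, 3 with 5 libraries, 4 with the replicate block, 25 with no trend, and 8 to 28 without one library. Counts at an unadjusted p under 0.05 were 1164 and 1429 with the filter of 5 FPKM, where fewer transcripts are tested. The counts of the 5-fold rule were 258 and 348 with that filter, 138 and 217 with 1 FPKM added, and 897 to 1764 and 1326 to 2402 without one library. Sign changes touched 7 named transcripts, none of them called. *TGG1* BnaA09g08470D went to -0.094 and -0.25 with pseudocounts of 0.5 and 0.1 FPKM and to -0.87 to 1.21 without single libraries. With the replicate block, BnaAnng15490D was at -0.22, BnaC08g02310D at -0.18 and BnaC03g11650D at -0.14. Leaving out single libraries gave ranges of -0.62 to 2.28 for *SAG21* BnaC02g28140D and, for histone transcripts, -0.60 to 0.75 (BnaAnng15490D), -0.28 to 0.43 (BnaC08g02310D), -0.35 to 1.21 (BnaC03g04250D), -0.13 to 0.50 (BnaC03g11650D) and -0.78 to 0.11 (BnaC02g00380D). For the last, all libraries gave -0.22. Apart from the size of the settings themselves, the cause of these moves was not tested. The 2 cortex libraries and the low fragment numbers limit the precision of low transcripts, and their part in the small number of calls under 5 FPKM was not tested.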
